A study of Homo sapiens with 6 samples.

Results

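The genes described here were 44 ribosome biogenesis and nucleolar factors, chosen by gene symbol and found in the gene tables of the series through their Ensembl identifiers. All 44 were found among 61496 features. They were measured by RNA-seq in 6 libraries of U251, a human glioma cell line grown in serum-containing medium. There were 3 untreated control libraries and 3 libraries from cells treated with the inhalational anesthetic sevoflurane (Sev) for 2 h. The exposure protocol lists 3 gas concentrations (1.7%, then 3.4%, and the highest at 5.1%), and the labels do not give the one behind each library. The study's legend to the sequenced comparison names the highest. U251 is a single line, and nothing in the labels says that the 3 libraries of a group came from separate cultures, so p-values measure the spread between these libraries only. The question was which transcripts differed between Sev-treated and untreated cells.

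Ribosomes are built in the nucleolus, where RNA polymerase I copies the ribosomal RNA genes into a long precursor. Small nucleolar RNAs and their core proteins modify this precursor, and large assemblies of non-ribosomal proteins fold it, cut it and load ribosomal proteins until the small (40S) and large (60S) subunits leave the nucleus. Growing tumour cells depend on this supply line, and the transcription factor MYC, which binds E-box sequences together with MAX, is a known activator of many of its genes.

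Most of the 44 genes rose in Sev. At an adjusted p under 0.05 in edgeR's quasi-likelihood test over 27514 features, 35 of the 44 genes were higher in Sev and 0 were lower, and 9 did not pass. Of all tested features 22.1% were called higher and 21.5% lower, and of the protein-coding genes 25.0% were called higher and 21.0% lower, against 79.5% higher among these genes. At an unadjusted p under 0.05, 38 were higher and 0 were lower (all features, 26.1% higher and 26.0% lower), and DESeq2's Wald test called 36 higher and 0 lower (all features, 22.7% higher and 20.7% lower). The median log2 fold change of the 44 genes was 0.51, with an interquartile range of 0.41 to 0.78 and a full range of -0.21 to 1.57, beside a median of -0.01 over all tested features and 0.04 over protein-coding genes. The changes were mostly below 2-fold: the study's threshold, a log2 fold change over 1 with an unadjusted p under 0.05, was passed upward by 7 genes (WDR43, NOP16, PPAN, LTV1, DDX21, GNL3 and NIP7) and downward by 0, while 11.4% of all features and 9.07% of protein-coding genes passed it upward and 12.0% of all features downward.

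The separation was also visible library by library, in CPM (counts scaled to a common library size after edgeR's TMM factors). Every Sev library lay above every control library for 35 of the 44 genes, of which 34 were also called higher, against 28.3% of all features. WDR75 was the 1 gene with every Sev library below every control library (all features, 28.2%), and 8 genes had overlapping groups. The controls were not alike: control 1 was the lowest control in 40 of the 44 genes, and control 2 the highest in 38. Summed over the 44 genes, the levels were 2440, 3106 and 2782 CPM in controls 1 to 3 and 4262, 3982 and 4552 CPM in Sev 1 to 3. The highest control sum was therefore still below the lowest Sev sum. In bulk RNA, a change in the cells sampled and a change of RNA per cell cannot be told apart.

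**Figure D1:**
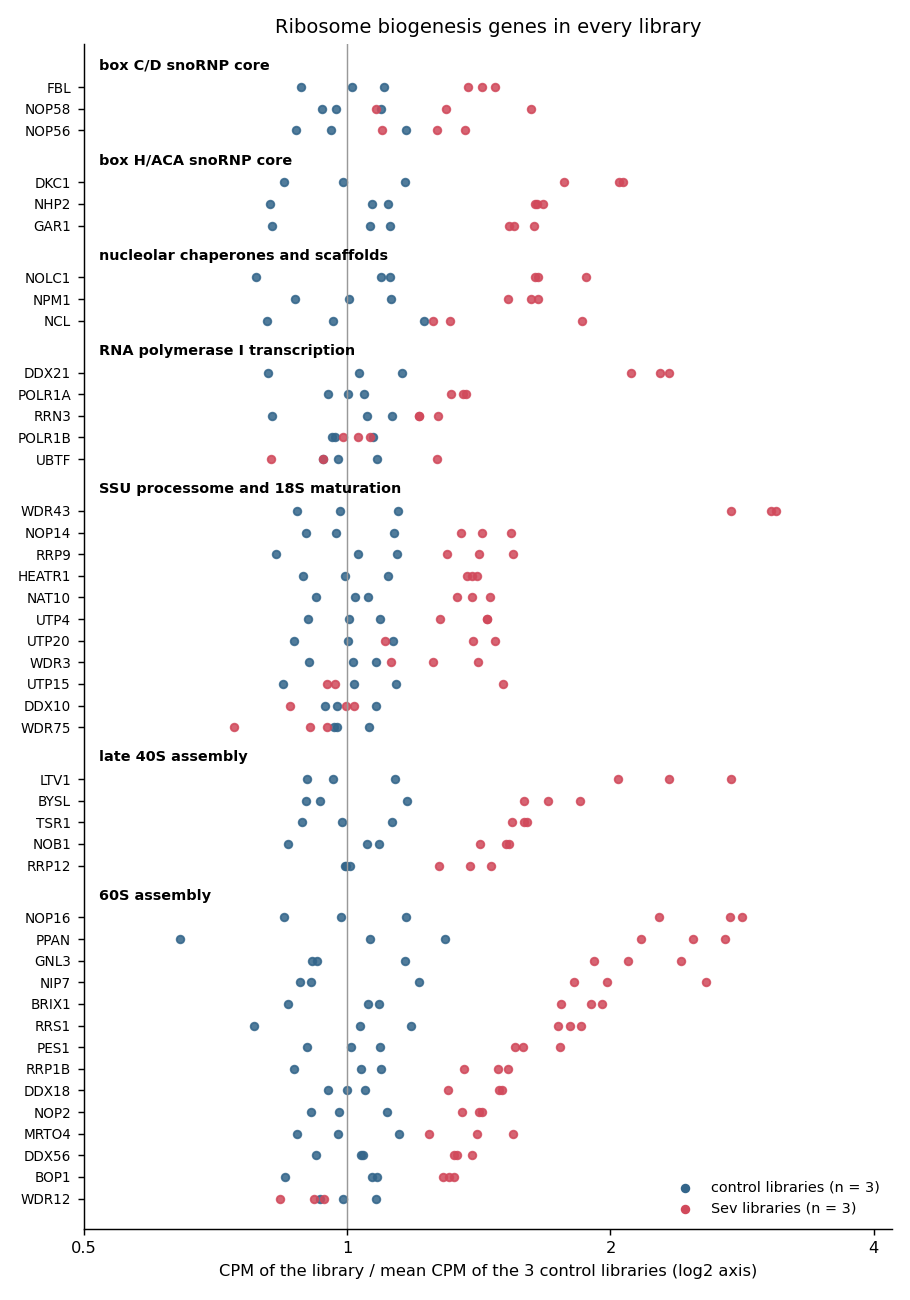
Level of each of the 44 genes in every library, as CPM divided by the mean CPM of the 3 control libraries (horizontal log2 axis), with genes in rows grouped by role and points for the 3 control and 3 Sev libraries. In 35 rows all 3 Sev points lie to the right of all 3 control points, with WDR43 farthest to the right, and WDR75 is the row in which the order is turned.

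The small nucleolar RNA (snoRNA) particles come in a pair of classes. Box C/D particles guide ribose methylation through the methyltransferase fibrillarin (FBL), and box H/ACA particles guide pseudouridylation through dyskerin (DKC1). All 3 H/ACA genes rose. In the C/D core 1 of 3 passed the test, a share to be read against the 22.1% of all features called higher, and all 3 were higher at an unadjusted p under 0.05 (all features, 26.1%). The difference between the classes was not tested. DKC1 (chrX:154762742-154777689, GRCh38) measured 44.3, 60.9 and 51.7 CPM in the controls and 108, 92.5 and 107 CPM in Sev, so the groups did not overlap and the mean rose from 52.3 ± 8.30 to 103 ± 8.71 CPM (SD, n = 3 libraries each). Its log2 fold change was 0.97 ± 0.13 (SE, edgeR adjusted p = 0.000954). NHP2 (chr5:178149460-178153967), an H/ACA core protein, stood at 30.0, 40.9 and 39.2 CPM in the controls. In Sev it was tightly grouped at 60.2, 61.4 and 60.5 CPM (log2 fold change 0.73 ± 0.12, edgeR adjusted p = 0.00267). GAR1 (chr4:109815510-109824740), the H/ACA subunit that helps release the modified RNA, went from 7.02, 9.09 and 9.58 to 14.0, 13.3 and 13.1 CPM (0.65 ± 0.15, edgeR adjusted p = 0.00896).

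FBL (chr19:39834458-39846414) was read at 90.2, 112 and 103 CPM in the controls and 145, 140 and 150 CPM in Sev. The rise was 1.42-fold (log2 fold change 0.51 ± 0.095, edgeR adjusted p = 0.00413) with no overlap between groups. Its partners NOP58 and NOP56, the scaffold proteins of the C/D particle, had log2 fold changes of 0.41 and 0.31 and did not pass (edgeR adjusted p = 0.0584 and 0.0877). In both, at least 1 Sev library lay within the control range: for NOP56 the controls spanned 41.3 to 55.1 CPM and Sev 51.7 to 64.4 CPM. NOP58 passed when Sev 2 was left out (edgeR adjusted p = 0.0165) and NOP56 when control 2 was left out (edgeR adjusted p = 0.0339).

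The 3 nucleolar chaperones and scaffolds all rose (all features, 22.1% called higher). NPM1 (nucleophosmin, chr5:171387116-171411137), a histone and ribosomal protein chaperone, had the highest FPKM of the 44 genes (counts per length and depth, given further on). It measured 307, 395 and 353 CPM in the controls and 581, 537 and 570 CPM in Sev, a 1.60-fold rise (log2 fold change 0.68 ± 0.10, edgeR adjusted p = 0.0018). The reads of NPM1 cannot be fully told from those of its 49 named pseudogene copies, which held 8.76% to 11.2% of the counts of the whole family in a library. NOLC1 (Nopp140, chr10:102152176-102163871), a chaperone of snoRNA particles, rose from 42.3, 58.9 and 60.2 to 88.9, 88.3 and 101 CPM (0.78 ± 0.14, edgeR adjusted p = 0.0036). NCL (nucleolin, chr2:231453531-231483641), an RNA-binding protein of early precursor processing, went from 242, 366 and 288 to 392, 374 and 554 CPM. Its groups touched closely, with the lowest Sev library just above the highest control, and its call was narrow (0.56 ± 0.19, edgeR adjusted p = 0.0458).

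Among 5 RNA polymerase I transcription genes, 2 rose and 3 did not pass. DDX21 (chr10:68956128-68985073), an RNA helicase that acts on ribosomal RNA transcription and early processing, stood at 125, 178 and 159 CPM in the controls. In Sev it stood at 351, 325 and 359 CPM, a 2.24-fold rise with a wide gap between the groups (log2 fold change 1.16 ± 0.13, edgeR adjusted p = 0.000483). POLR1A (chr2:86020216-86106155), the largest catalytic subunit of the polymerase, rose less, from 110, 121 and 116 to 152, 157 and 158 CPM (0.43 ± 0.073, edgeR adjusted p = 0.0027). The second-largest subunit, POLR1B, gave 30.8, 34.3 and 31.1 CPM in the controls and 34.1, 31.7 and 33.0 CPM in Sev, and the groups overlapped (0.04, 95% interval -0.17 to 0.25). The promoter-binding factor UBTF had a log2 fold change of 0.01 with an interval of -0.35 to 0.38, its Sev libraries ranging from 59.4 to 92.0 CPM around controls of 68.2 to 78.6 CPM. RRN3 (TIF-IA), which recruits the polymerase to the promoter, was above the controls in every Sev library but did not pass (0.30, interval 0.01 to 0.59, edgeR adjusted p = 0.0892). Named copies of RRN3 held 17.6% to 27.0% of the counts of that family.

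The SSU processome is the large particle that folds the 5′ part of the precursor and releases the 18S rRNA. Of 11 genes 8 rose, 0 fell and 3 did not pass (all features, 22.1% higher and 21.5% lower). The 8 became 5 without control 1, control 3, Sev 1 or Sev 3, since RRP9, UTP20 and WDR3 then lost the call. WDR43 (chr2:28894643-28948222), a subunit of its UTP-A module, changed most of all 44 genes. The controls measured 40.8, 53.2 and 45.7 CPM and the Sev libraries 144, 128 and 142 CPM, a 2.97-fold rise from 46.6 ± 6.23 to 138 ± 8.78 CPM (SD, n = 3 each). Its log2 fold change was 1.57 ± 0.11 (edgeR adjusted p = 0.000112). NAT10, HEATR1, UTP4 and NOP14 rose by 1.39- to 1.44-fold. NAT10 (chr11:34105602-34147670), the RNA cytidine acetyltransferase, went from 69.0, 79.2 and 76.5 to 100, 109 and 104 CPM (0.48 ± 0.084, edgeR adjusted p = 0.00309). HEATR1 (UTP10, chr1:236549005-236604504), another UTP-A subunit, was at 90.5, 113 and 101 CPM in the controls and within a narrow 139 to 143 CPM in Sev (0.48 ± 0.094, edgeR adjusted p = 0.00525).

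UTP4 (cirhin, chr16:69131291-69231130), also of UTP-A, measured 64.4, 77.9 and 71.8 CPM in the controls and 103, 91.2 and 103 CPM in Sev (0.47 ± 0.098, edgeR adjusted p = 0.00646). NOP14 (chr4:2937933-2963385), which helps assemble the particle, measured 33.6, 42.4 and 36.4 against 53.4, 50.6 and 57.6 CPM (0.52 ± 0.11, edgeR adjusted p = 0.00668). In both genes the groups were apart. RRP9, UTP20 and WDR3 also passed with all 6 libraries, at log2 fold changes of 0.51, 0.40 and 0.34, but each lost the call in 4 of the 6 fits with a library left out (edgeR adjusted p up to 0.0608, 0.138 and 0.113) and with scaling by library totals, and UTP20 and WDR3 also with the replicate block. UTP20 was the 1 called gene of the 44 with overlapping groups. The remaining processome genes were UTP15 (0.19, interval -0.26 to 0.65), the helicase DDX10 (-0.06, interval -0.30 to 0.18) and WDR75 (-0.21, interval -0.47 to 0.06, edgeR adjusted p = 0.178). WDR75, a UTP-A subunit, stood at 36.0, 39.1 and 35.7 CPM in the controls and 33.5, 27.4 and 35.0 CPM in Sev.

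Late 40S assembly genes, whose products accompany the small subunit into the cytoplasm and finish it there, rose in 5 of 5 cases. Of all features 22.1% were called higher. LTV1 (chr6:143843344-143863812), a factor that must leave before the head of the subunit matures, rose 2.37-fold, from 17.3, 21.8 and 18.5 to 44.8, 39.2 and 52.7 CPM (log2 fold change 1.25 ± 0.14, edgeR adjusted p = 0.000499). TSR1 (chr17:2322503-2337507), a GTPase-like assembly factor, went from 86.9, 110 and 96.6 to 157, 151 and 156 CPM (0.66 ± 0.097, edgeR adjusted p = 0.00148). The Sev values of TSR1 lay closer together than its controls. BYSL (bystin, chr6:41921188-41933046) rose from 16.8, 21.1 and 16.2 to 33.3, 30.6 and 28.7 CPM (0.78 ± 0.13, edgeR adjusted p = 0.00254). RRP12 (chr10:97356358-97426076), an export factor, had the tightest controls of these genes at 63.2, 63.1 and 63.8 CPM and reached 92.6, 87.5 and 80.8 CPM (0.46 ± 0.081, edgeR adjusted p = 0.0032). NOB1 (chr16:69741867-69754940), the endonuclease that makes the final 18S cut, went from 27.0, 33.2 and 34.3 to 47.9, 44.7 and 48.2 CPM (0.58 ± 0.11, edgeR adjusted p = 0.00461). No control library of any of the 5 genes reached the lowest Sev library, a separation also seen in 28.3% of all features.

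The largest group was 60S assembly, in which 13 of 14 genes rose, 0 fell and the median log2 fold change was 0.62. Of all features 22.1% were called higher and 21.5% lower. NOP16 (chr5:176383938-176388975), a nucleolar 60S factor, went from 11.1, 15.3 and 12.9 to 35.9, 29.8 and 37.0 CPM, a 2.62-fold rise (1.39 ± 0.15, edgeR adjusted p = 0.000399). GNL3 (nucleostemin, chr3:52681156-52694492), a nucleolar GTPase abundant in stem and tumour cells, rose from 50.0, 63.9 and 50.7 to 115, 105 and 132 CPM (1.10 ± 0.13, edgeR adjusted p = 0.000571). BRIX1 (chr5:34915376-34925996), which is needed for early 60S assembly, measured 19.1, 24.3 and 23.6 CPM in the controls and 42.4, 39.2 and 43.7 CPM in Sev (0.90 ± 0.12, edgeR adjusted p = 0.000853). In each of these 3 genes the lowest Sev library exceeded the highest control by more than the spread of the controls.

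PES1 (pescadillo, chr22:30576625-30607083) is one subunit of the PeBoW complex, which it forms with BOP1 and WDR12. It rose from 41.5, 50.2 and 46.5 to 73.1, 71.6 and 80.6 CPM (0.70 ± 0.099, edgeR adjusted p = 0.00121). NIP7 (chr16:69337996-69343111) rose from 23.1, 31.6 and 23.8 to 67.3, 47.5 and 51.8 CPM (1.09 ± 0.17, edgeR adjusted p = 0.00196), with the Sev libraries spread more widely than for most of these genes. Of the exon bases of NIP7, 20.2% lay opposite COG8, which was lower in Sev (-0.93, edgeR adjusted p = 0.000953). The other 60S genes that passed were PPAN, RRS1, RRP1B, DDX18, NOP2, MRTO4, DDX56 and BOP1, with log2 fold changes from 0.39 (BOP1) to 1.29 (PPAN). PPAN, a 60S factor, shared 56.0% of its exon bases with the read-through gene PPAN-P2RY11, whose own counts varied between 582, 30 and 202 in the controls and 1899, 1450 and 1635 in Sev, so the division of reads between these genes is uncertain. WDR12 was the 60S gene that did not pass (-0.16, interval -0.39 to 0.08, edgeR adjusted p = 0.256), and its groups overlapped.

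**Figure D2:**
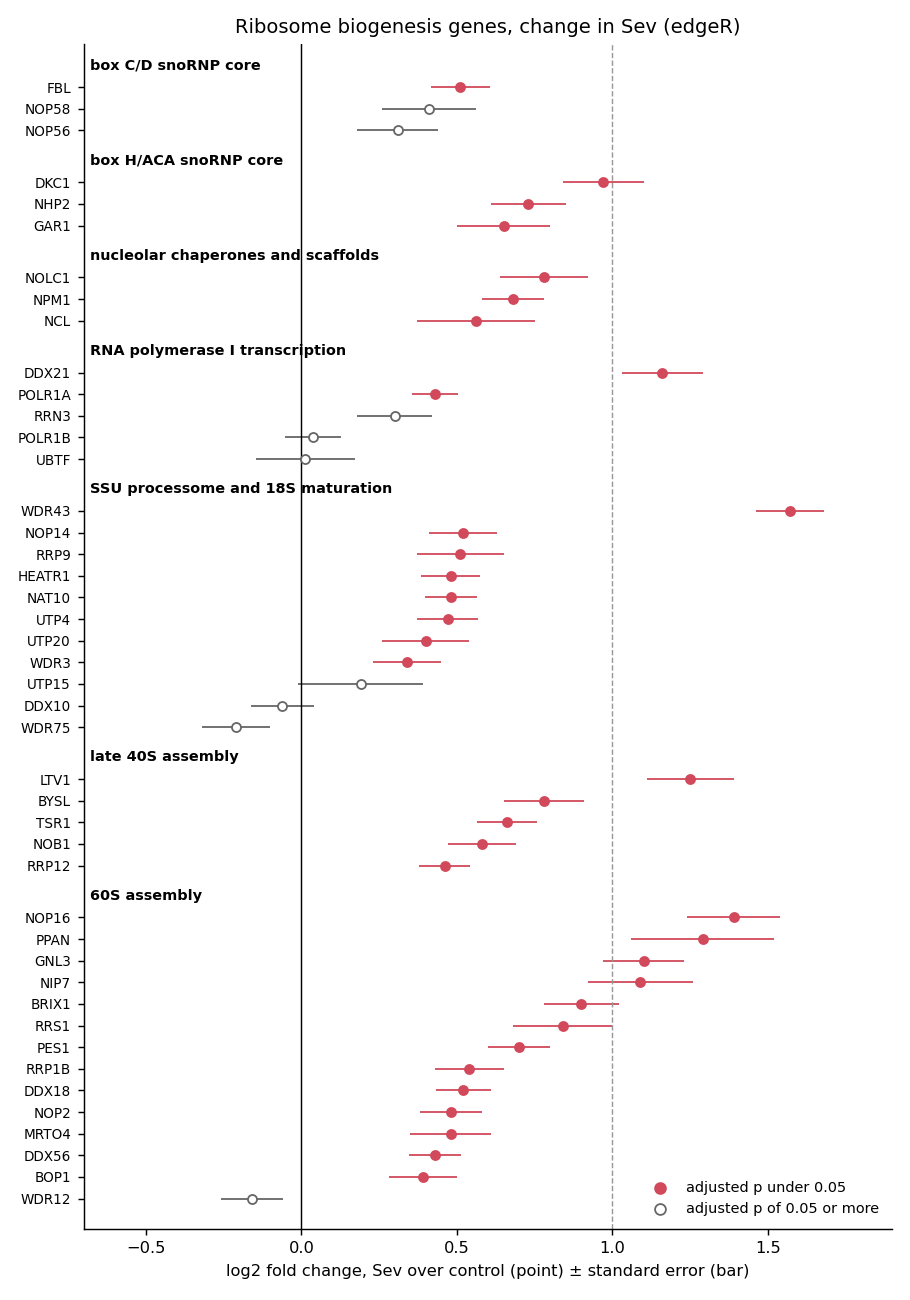
Log2 fold change of Sev over control for each of the 44 genes (point) with its standard error (bar), from edgeR on 3 control and 3 Sev libraries, in rows grouped by role. Filled points, 35 genes, had an adjusted p under 0.05 and all lie to the right of 0, open points are the 9 genes that did not pass, and the dashed line is the study's fold threshold.

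The 35 calls were not equally firm. With each library left out in turn, 29 of the 35 genes were called in all 6 fits. Beside UTP20, WDR3 and RRP9, NCL and MRTO4 lost the call without control 1, control 3, Sev 1 or Sev 3. The edgeR adjusted p of NCL and MRTO4 reached 0.141 and 0.0632 in the least favourable of these fits. BOP1 lost it without Sev 1 or Sev 3 (edgeR adjusted p = 0.0602 and 0.0502). The same 6 genes lost the call when libraries were scaled by their totals alone, which lowered the median of all features by 0.14 and left 29 genes higher and 0 lower (all features, 17.0% higher and 27.3% lower). With the replicate number as a block, 32 were higher and 0 lower (all features, 19.0% higher).

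Subunits of the same complex did not always move alike, and pairs from 3 complexes were picked after their values were seen. FPKM values, which are per length, were used for levels between genes. In PeBoW the ratio of PES1 to WDR12 was 3.67, 3.83 and 3.87 in the controls and 6.58, 7.03 and 7.06 in Sev. The BOP1 to WDR12 ratio went from 4.67, 5.13 and 5.52 to 7.20, 8.08 and 7.12. Both ratios were higher in every Sev library than in any control, while WDR12 itself had the lowest mean control FPKM of the 44 genes, at 2.29 ± 0.126.

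In UTP-A the ratio of WDR43 to WDR75 was 1.40, 1.67 and 1.57 in the controls and 5.28, 5.73 and 4.99 in Sev, 3.45-fold higher on average. HEATR1 to WDR75 rose less, from a mean of 1.53 ± 0.111 to 2.48 ± 0.307. POLR1A to POLR1B moved from 1.69 ± 0.0455 to 2.22 ± 0.123. For each of these ratios the exact two-sided permutation test gave p = 0.1, the smallest value that 3 libraries against 3 can give, and the pairs were chosen for their difference, so this is a description. Each ratio is taken within a library and does not change with the scaling between libraries.

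**Figure D3:**
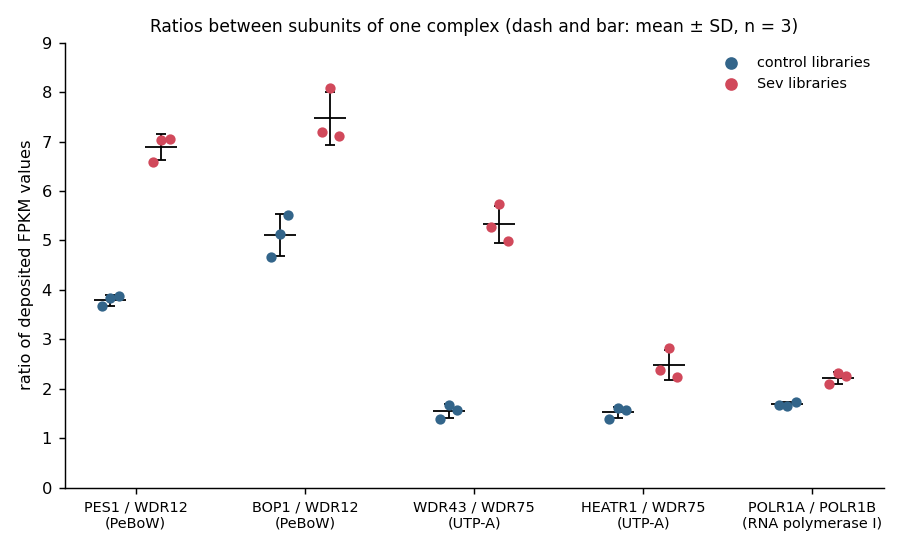
Ratio of deposited FPKM values (vertical axis, starting at 0) between subunits of PeBoW, UTP-A and RNA polymerase I in 3 control and 3 Sev libraries, with points for libraries and dashes with bars for mean ± SD. In all 5 pairs the Sev points lie above the control points, and the WDR43 to WDR75 pair has the widest gap, with means of 1.55 and 5.33.

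Levels per length spanned a wide range. In the controls NPM1 had 78.3 ± 8.28 FPKM, FBL 40.6 ± 3.62, NCL 37.2 ± 7.08 and DDX21 26.3 ± 4.10, and at the low end GAR1 had 3.70 ± 0.534, DDX10 3.27 ± 0.193 and WDR12 2.29 ± 0.126 (SD, n = 3). The order of FBL and NCL was not distinct beyond their spread. Across the 44 genes, the Spearman correlation between control FPKM and log2 fold change was 0.25. The genes share the same 6 libraries, so this is a description.

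Most other genes of the pathway that passed the test were higher too. A list of 149 further assembly genes was set by role, and 147 of them were tested. Of these 82 were higher and 9 lower, with a median log2 fold change of 0.38, and the study's threshold was passed by 9 upward and 0 downward. As shares of the 147 genes, 55.8% were higher and 6.12% lower, against 22.1% and 21.5% of all features, while upward passes of the study's threshold (9 of 147) were no more frequent than the 11.4% of all features. Scaling by library totals alone gave 61 higher and 18 lower (all features, 17.0% and 27.3%). By role, 28 of 45 further SSU processome and 40S genes were higher and 1 lower (UTP6, -0.55), and 36 of 56 further 60S genes were higher and 4 lower. The smallest p values in the 60S list belonged to CCDC86 (1.64 ± 0.10), the ribosomal protein L3 chaperone GRWD1 (1.25 ± 0.10) and WDR74 (1.17 ± 0.10), with edgeR adjusted p = 7.4e-05, 0.000162 and 0.000178. CCDC86 went from 22.5, 21.3 and 24.6 to 71.8, 77.2 and 64.4 CPM. Against that direction SDAD1, TMA16 and NOC3L fell by 0.52, 0.82 and 0.67 on the log2 scale.

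Of the SSU genes that rose, NOL6 (1.08), RRP7A (0.83) and UTP25 (1.03) had the smallest p values. NOL6 more than doubled its CPM between groups that were far apart, from 96.1, 111 and 110 to 222, 219 and 229. The nuclear exosome and RNase MRP, which trim and cut the precursor, had 10 of 23 genes higher, with the smallest p values for EXOSC5 (0.88), RPP14 (0.75) and EXOSC9 (0.66), and 1 lower (POP1, -0.59). As shares of this list, 43.5% were higher and 4.35% lower, against 22.1% and 21.5% of all features. Further RNA polymerase I genes had 5 of 12 higher (among them POLR1F, TAF1C and POLR1C at 0.67, 0.45 and 0.62). In that list 2 were lower, TAF1A (-0.92) and TBP (-0.66). The 41.7% higher and 16.7% lower are to be read against the same shares of all features, and the share lower is below theirs. Further snoRNA particle genes had 3 of 11 higher (NUFIP1 0.64, NAF1 0.44, NOP10 0.32) and 1 lower (RPAP3, -0.29), a share of 27.3% higher that is near the 22.1% of all features and 25.0% of protein-coding genes, with a median of 0.06. Each of these calls is an edgeR adjusted p under 0.05, but UTP6, POP1, NAF1, NOP10 and RPAP3 lost it in at least 1 of the 6 fits with a library left out, where the adjusted p reached 0.0588, 0.0762, 0.0778, 0.119 and 0.14.

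**Figure D4:**
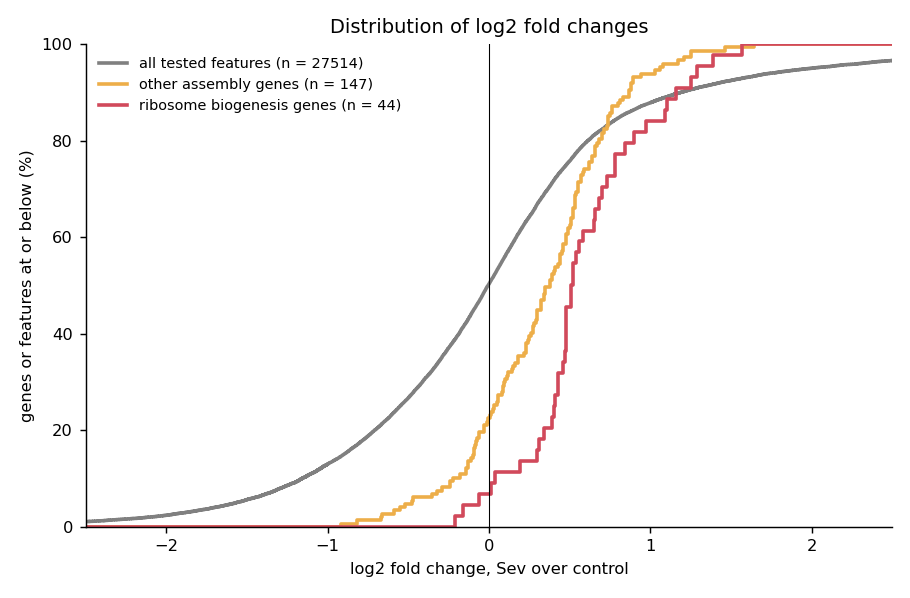
Cumulative share of genes or features (vertical axis, percent) at or below each log2 fold change of Sev over control (horizontal axis) for 27514 tested features, 147 other assembly genes and the 44 ribosome biogenesis genes. The medians are -0.01, 0.38 and 0.51, and 41 of the 44 genes have a positive value.

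Among 9 regulators of ribosomal RNA synthesis, 4 were higher and 2 lower, and the 22.2% lower is near the 21.5% of all features. MYC rose by 1.65 ± 0.39 (edgeR adjusted p = 0.011), but its libraries were widely spread at 38.3, 21.2 and 43.9 CPM in the controls and 134, 136 and 53.1 CPM in Sev. MAX, the dimer partner of MYC, was lower (17.1, 17.8 and 18.5 against 12.2, 11.8 and 9.97 CPM, -0.65 ± 0.12, edgeR adjusted p = 0.00395). RPTOR, the scaffold of mTORC1, rose by 0.48 and SIRT7 by 0.34 (the latter not past the threshold in 3 of the 6 fits with a library left out, edgeR adjusted p up to 0.0779), and the histone demethylase KDM2A fell by 0.62 on the log2 scale.

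The promoters were searched for the E-box CACGTG, which reads the same on both strands, in RefSeq windows (GRCh38.p14) from 250 bases before to 50 after a RefSeq transcript start. A gene can have several such starts, and they need not lie at the outer end of the gene span given above. A window was found for 37 of the 44 genes. The motif was present in 15 of these 37 genes (40.5%), in 38 of 128 other assembly genes (29.7%), in 11.9% of 12031 tested protein-coding genes and in 8.77% of 27305 genes of the table with a window. All 15 were among the 29 genes with a window that rose (51.7%), and 0 of the 8 genes with a window that did not pass held it, which says only that these letters were not in those windows. In the 15 genes the first base of the motif lay between 31 bases before and 36 after the start. Stretches of 100 bases, 70 before and 30 from the start on, are given for genes that rose in different roles, with the motif in capitals. Genes that rose without the motif are not printed. Stretches without it are given for WDR75 and WDR12, whose values pointed downward and did not pass. Each reads 5′ to 3′ on the strand of the gene.
WDR43, chr2:28894597-28894696, plus strand: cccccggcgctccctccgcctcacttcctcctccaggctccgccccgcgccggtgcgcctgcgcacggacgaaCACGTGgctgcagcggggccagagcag
DDX21, chr10:68956577-68956676, plus strand: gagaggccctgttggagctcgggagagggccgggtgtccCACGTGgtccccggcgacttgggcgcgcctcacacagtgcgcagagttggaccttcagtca
GNL3, chr3:52685962-52686061, plus strand: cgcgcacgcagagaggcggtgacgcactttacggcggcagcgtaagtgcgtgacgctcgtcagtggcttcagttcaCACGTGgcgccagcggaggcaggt
PES1, chr22:30591881-30591980, minus strand: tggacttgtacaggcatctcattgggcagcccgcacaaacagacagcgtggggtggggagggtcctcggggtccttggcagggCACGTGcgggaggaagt
FBL, chr19:39846350-39846449, minus strand: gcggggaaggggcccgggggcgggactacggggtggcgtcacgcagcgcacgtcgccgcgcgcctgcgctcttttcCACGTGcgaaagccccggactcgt
NAT10, chr11:34105559-34105658, plus strand: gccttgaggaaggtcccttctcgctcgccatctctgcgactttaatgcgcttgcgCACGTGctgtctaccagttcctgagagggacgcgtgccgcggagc
UTP4, chr16:69132579-69132678, plus strand: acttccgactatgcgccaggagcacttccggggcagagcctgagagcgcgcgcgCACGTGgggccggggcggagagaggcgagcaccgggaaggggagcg
WDR75, chr2:189441404-189441503, plus strand: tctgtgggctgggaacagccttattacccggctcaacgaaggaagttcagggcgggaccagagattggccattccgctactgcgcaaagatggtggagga
WDR12, chr2:202911644-202911743, minus strand: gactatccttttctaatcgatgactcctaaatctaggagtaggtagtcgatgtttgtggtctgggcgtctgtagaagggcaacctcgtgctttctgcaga

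In WDR43, GNL3, FBL and PES1 the motif followed the RefSeq start of the window, and in DDX21, NAT10 and UTP4 it preceded it. The RefSeq start lay inside the GENCODE gene span by 103.1 kb for WDR12, 15.2 kb for PES1, 4.9 kb for GNL3, 1.4 kb for UTP4 and 0.5 kb for DDX21, so the WDR12 stretch in particular need not be the only promoter of that gene. The genes printed with the motif ranged in log2 fold change from 0.47 (UTP4) to 1.57 (WDR43). Genes holding the motif close to the start thus included both the largest rise and modest ones. A match of letters does not show that a factor was bound.

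**Figure D5:**
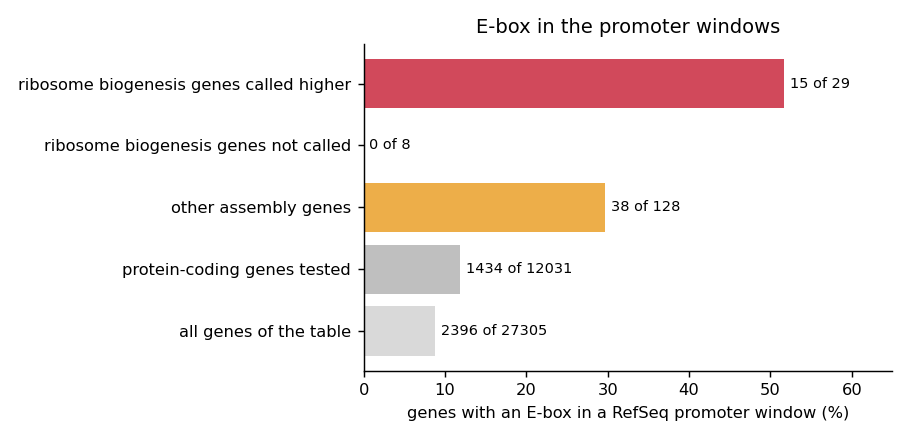
Share of genes (horizontal axis, percent) with the E-box in at least 1 RefSeq promoter window, for the ribosome biogenesis genes called higher and those not called, other assembly genes, tested protein-coding genes and all genes with a window, with the counts printed beside each bar. The shares are 51.7%, 0%, 29.7%, 11.9% and 8.77%.

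Several of these genes carry snoRNA genes in their introns. By position on the same strand, 27 snoRNA or scaRNA genes lay within 8 of the 44 genes, and 12 of them had enough counts to be tested. Of those 2 were called higher and 0 lower, and at an unadjusted p under 0.05 edgeR gave 4 higher and 0 lower. These counts of 12 are near the shares of all features, 22.1% called higher and 26.1% higher at an unadjusted p under 0.05. Both called snoRNAs lay in GNL3, and their sequences are shown because they were called higher as their host was. SNORD19 had 14, 12 and 15 counts in the controls and 42, 38 and 45 in Sev (log2 fold change 1.78, edgeR adjusted p = 0.00136). SNORD19C had 16, 15 and 12 against 32, 24 and 22 counts (1.03, edgeR adjusted p = 0.0394). The SNORD19 call held with any library left out, while that of SNORD19C was lost in 5 of the 6 such fits, all but the one without Sev 3, with edgeR adjusted p up to 0.141, and in DESeq2 (adjusted p = 0.0825). Their GENCODE 29 sequences (GRCh38) share a stretch of 17 bases, in capitals.
SNORD19, chr3:52689248-52689315, plus strand: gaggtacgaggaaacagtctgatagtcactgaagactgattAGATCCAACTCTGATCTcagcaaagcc
SNORD19C, chr3:52691378-52691453, plus strand: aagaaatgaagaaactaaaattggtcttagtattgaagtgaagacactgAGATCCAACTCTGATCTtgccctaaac

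SNORD53, within WDR43, was at 1.06 on the log2 scale and did not pass (edgeR adjusted p = 0.0547). These counts are low, with at most 73 for any hosted snoRNA in any library, and reads from a snoRNA and from the intron of its host's precursor cannot be told apart. A count of exactly 1 in every library was listed for 6 of the 27, as for 363 features of the whole table, and for SNORD86 in NOP56 that count went with FPKM values from 7e-06 to 0.000154, so a 1 in this table need not be a read.

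The 6 libraries held 38624292 to 46318311 counts and their TMM factors were 1.03 to 1.08 in the controls and 0.918 to 0.988 in Sev. Of 10 glioma and astroglial markers all were measured, with summed levels of 9190 to 10059 CPM in the controls and 10533 to 11437 CPM in Sev. VIM made up much of these sums, with means of 5485 CPM in the controls and 6150 CPM in Sev, and was not called (edgeR adjusted p = 0.243). CD44, EGFR and TNC were higher and SOX2 and S100B lower, but EGFR and TNC each lost the call in 4 of the 6 fits with a library left out (edgeR adjusted p up to 0.135 and 0.0917). These shares, 30.0% higher and 20.0% lower, are near the 22.1% and 21.5% of all features. The 12 markers of other cell types summed to 31.4 to 35.6 CPM in the controls and 43.2 to 48.6 CPM in Sev. Of 8 tested CD14, PECAM1, SYT1 and MBP were higher (50.0%, all features 22.1%), PECAM1 losing the call in 5 of the 6 fits with a library left out (edgeR adjusted p up to 0.128). None of the 12 was at 0 in all libraries, and PTPRC, EPCAM, CDH1 and MOG were too low to test. The part of these differences in the results above was not tested. Exon bases were shared with another gene in 24 of the 44 genes, at 10% or more in 12, and whether reads were counted by strand is not stated. Strand would not separate 4 genes that shared 10% or more on the same strand: PPAN, NOP2 (54.4%), LTV1 (27.7%) and RRS1 (11.4%). For NOP2, LTV1 and RRS1 the other gene at that share had at most 15 counts in any library. LTV1 shared a further 7.15% with another same-strand gene, which was at 1.70 and did not pass (edgeR adjusted p = 0.0663). For WDR3, 17.1% of exon bases lay opposite SPAG17, which was called higher (0.34), and for HEATR1 23.2% lay opposite LGALS8, also called higher (0.26) but lost in 4 of the 6 fits with a library left out. For NOP16, 12.0% lay opposite ARL10 (2.11, edgeR adjusted p = 0.00081) and 7.93% opposite HIGD2A (0.67, edgeR adjusted p = 0.000941), both called higher.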

How the data were processed

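Whole-transcriptome RNA-seq of 3 control and 3 Sev libraries of U251 cells was used. RNA was depleted of rRNA, fragmented and made into libraries with strand-specific adapters. Per the labels' processing notes, the authors used bcl2fastq 2.19 and featureCounts and named the build hg18, and the deposited tables give raw counts and FPKM per Ensembl identifier without coordinates. The aligner, the annotation, the strand setting and the gene lengths behind FPKM are not given in the sources used here. Identifiers were joined to GENCODE 29 (GRCh38) for symbols, positions and overlaps.

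Counts were tested with edgeR 4.0.16 (R 4.3.3; filterByExpr on the groups, TMM, glmQLFit and glmQLFTest) on all 6 libraries, with Benjamini-Hochberg adjustment over all 27514 features that passed the filter, of 61496. All 44 genes passed. An adjusted p under 0.05 was a call, and fold changes are log2 of Sev over control with standard errors from the fit. FPKM served for levels between genes and, with limma 3.58.1 on log2 values (pseudocount 1 or 0.1), for alternatives; DESeq2 1.42.0 was another. On simulated counts for control against Sev (26397 features), 68.4% of features changed by 1 on the log2 scale, 100% of those changed by 2 and 0.0267% of unchanged ones were called. The simulated counts had 192 changed features and the same dispersion for every feature. In the data 22.1% of features were called higher and 21.5% lower. The simulated shares therefore do not give the rates of found and false calls in these data. No pair of libraries in a group agreed within sampling noise: 49.0% to 66.6% of 15608 features differed beyond it.

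The 44 genes, their roles and the further gene lists were chosen with earlier results of these data known. Values in every library were printed for up to 5 genes per role with the smallest p among those called, up to 3 genes per direction were named from each further list, and the rest were given by counts and ranges. POLR1B and WDR75, which were not called, are also printed in every library and were chosen after their values were seen. Complex pairs were chosen after seeing the values. PINX1 was left out because its symbol matched more than one identifier, and RPP25 did not pass the filter. Promoter windows came from RefSeq (GRCh38.p14) and snoRNA sequences from GENCODE 29.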

Additional observations from a re-analysis of the deposited data

How the results depend on the processing

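Across 15 alternatives the 44 genes gave 28 to 36 calls higher and 0 lower, 5 to 8 past the study's threshold and a median log2 fold change of 0.35 to 0.60, while 9.64% to 22.7% of all features were called higher. With one library left out these were 29 to 36 higher, 0 lower, 6 to 8 past the threshold and a median of 0.43 to 0.60 (all features, 16.7% to 20.0% higher), and the further assembly genes gave 62 to 82 higher and 6 to 8 lower. Further assembly genes called lower numbered 18 with library size only, 19 with limma on log2(FPKM + 0.1), 19 with log2(FPKM + 1) and 14 with log2(FPKM + 1) and no filter, where 51 were higher. On log2(FPKM + 0.1) 29 of the 44 genes were higher and 16.2% of all features. The cause was not tested, except that library size alone shifts the median of all features by -0.14. No called gene of the 44 turned direction. Of those not called, POLR1B was at -0.10 with library size only and log2(FPKM + 0.1) and at -0.085 with log2(FPKM + 1), with or without the filter. UBTF was at -0.12 with library size only, -0.15 with log2(FPKM + 0.1), -0.13 with log2(FPKM + 1), with or without the filter, and -2.9e-05 with no expression filter, and it ranged from -0.18 to 0.15 with a library left out. UTP15 ranged from -0.059 to 0.31 and DDX10 from -0.11 to 0.015. With the replicate number as a block (replicate block), 32 genes were higher, NCL, UTP20 and WDR3 lost the call and UBTF was at -0.0086. Same-numbered libraries showed no shared deviation: their deviations correlated at -0.00723, 0.00351 and 0.027, and control 1 correlated best with Sev 2 (0.0319). These correlations cannot show whether same-numbered libraries were handled together. Depth limits the hosted snoRNAs, of which 12 of 27 had enough counts to be tested.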
